A study of Mus musculus with 10 samples.

Results

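Transcripts of 10 genes of extracellular matrix breakdown and its control, 7 matrix metalloproteinases (Mmp2, Mmp3, Mmp9, Mmp11, Mmp13, Mmp14 and Mmp15) and 3 tissue inhibitors of metalloproteinases (Timp1, Timp2 and Timp3), were followed in 10 mouse mammary tumours. They were found by matching the Ensembl identifiers of the count table, without their version, to gene symbols, and all 10 of 10 symbols were among its 55335 genes. The tumours grew from Wap-Myc mammary epithelial cells, where Myc, an oncogene, is driven by the promoter of the milk protein gene Wap and so is expressed in mammary epithelium during pregnancy and lactation. The cells had been transduced, at a multiplicity of infection of 10, with the lentiviral construct pIND21-HPN for inducible expression of hepsin, a transmembrane serine protease of epithelial cells, and were grafted into the fat pads of mice aged 3 weeks. The DOX_pos group (5 tumours) came from hosts given sugar water with doxycycline (2 mg/ml in 5% sucrose) from 3 days after grafting, and the DOX_neg group (5 tumours) from hosts given sugar water alone. All 10 tumours shared the FVB background, the Wap-Myc transgene, the construct, Myc induction by 2 pregnancies from 8 weeks of age, and collection at a diameter of 1 cm. Doxycycline and the induced gene therefore cannot be told apart. No label says whether the tumours came from separate hosts, so the p-values cover the spread among these tumours alone. Library totals were 14256948 to 20469533 counts in 9 tumours and 39358457 counts in DOX_pos 3.

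Matrix metalloproteinases (MMPs) are zinc enzymes that cut collagens and other matrix proteins, and most are secreted as inactive proenzymes whose prodomain must be removed. Tissue inhibitors of metalloproteinases (TIMPs) bind the active site of the enzymes. TIMP2 also takes part in activation, since it links proMMP2 to the membrane-bound enzyme MMP14. In the mammary gland these enzymes and inhibitors act in duct branching and in the remodelling after weaning, and in tumours many of them are made by fibroblasts and immune cells as well as by epithelium. RNA came from whole tumours here, so fewer cells of a type and less RNA per cell cannot be told apart.

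Timp3 was the member that differed most between the groups. It averaged 144 ± 28.7 CPM in DOX_pos tumours and 68.0 ± 31.5 CPM in DOX_neg tumours (SD, n = 5 each), where CPM are read counts normalised to the library total with edgeR's TMM factors. No member, Timp3 included, separated the groups fully (0 of 10, where 2.94% of all tested genes did, 1.82% with every DOX_pos tumour above and 1.13% with every one below). For Mmp2, Mmp3, Mmp9, Mmp11, Mmp13, Mmp14 and Timp2 the SD within groups on the log2(CPM + 1) scale exceeded the size of edgeR's log2 fold change. By edgeR's quasi-likelihood test over all 16167 tested genes, 0 of 10 members had an adjusted p under 0.05, and 1 of 10 (Timp3, higher) had an unadjusted p under 0.05. Over all tested genes 2592 (16% of them) had an unadjusted p under 0.05 with edgeR, 8.2% higher and 7.83% lower, so a count of 1 in 10 members lies near the background. Scaling by library size alone gave 2307 such genes, of which 67.8% were higher, against 51.2% with TMM. The smallest adjusted p over all genes was 0.140 with edgeR, and 0 genes (0%) were called. DESeq2 called 322 genes (2.12% of 15210, and 1.32% as higher) at an adjusted p under 0.05 and limma voom called 0 (0%), and among the members DESeq2 called 1 (Timp3) and limma voom 0. The median log2 fold change was 0.21 over the 10 members and 0.00 over all tested genes, with 7 members higher and 3 lower, where 50.5% of all genes were higher.

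**Figure D1:**
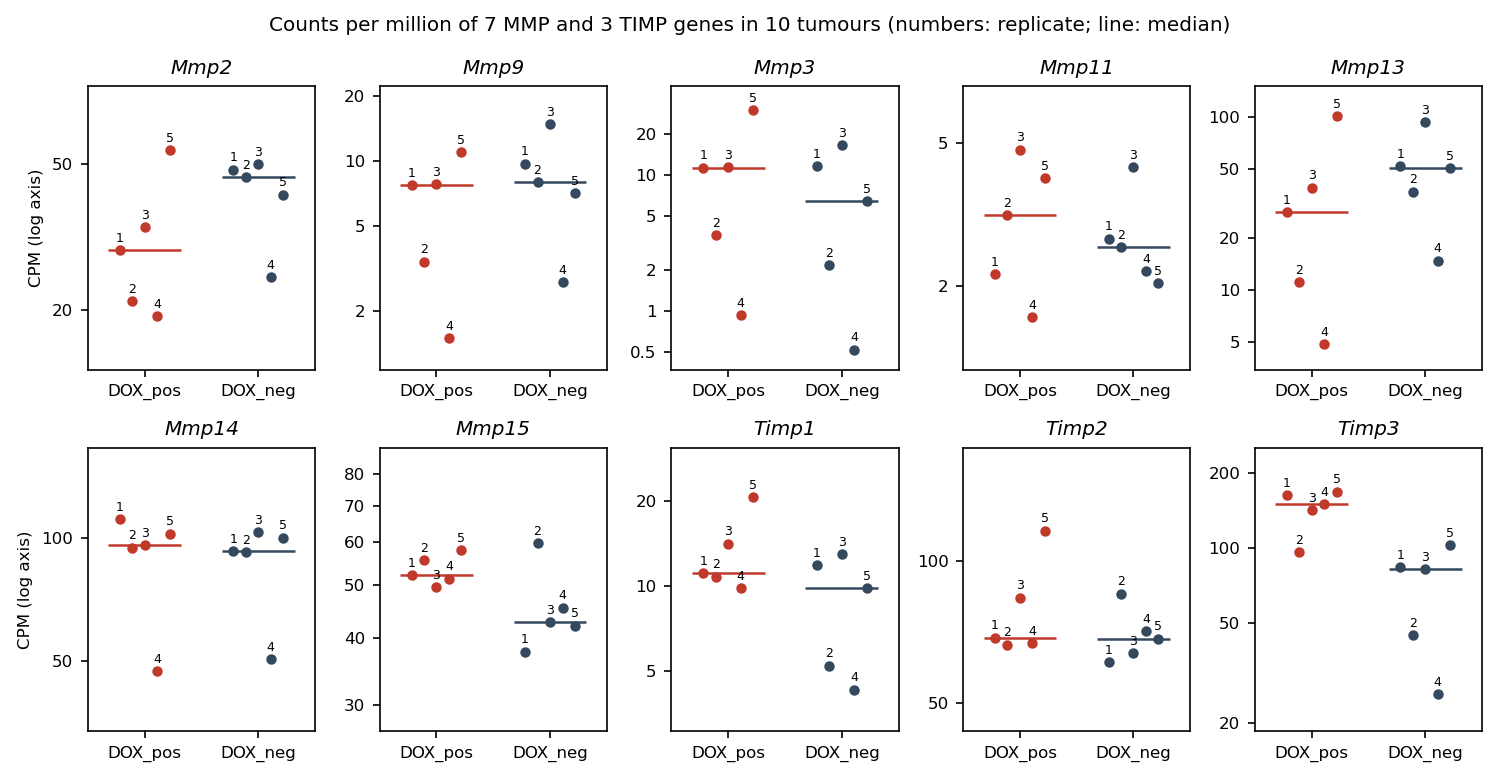
Normalised read count (CPM) of each gene on a log axis, one panel per gene, with DOX_pos tumours on the left (red), DOX_neg tumours on the right (dark), the replicate number above each point and a line at the group median. Each panel has its own axis range. In the Timp3 panel 4 of 5 DOX_pos tumours lie above every DOX_neg tumour, while Mmp3, Mmp13 and Mmp9 have the widest fold ranges over the tumours.

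The upstream sequences of 3 members show how unlike the start regions of these genes are, which is why they are printed before the values. RefSeq promoter windows of build GRCm38.p6, from 250 bases before to 50 after the start of transcription, were matched for 8 of the 10 members (not for Mmp2 and Mmp9). The 2 secreted enzymes with the widest spread between tumours, Mmp3 and Mmp13, had A and T rich windows (40.0 and 43.7% G and C, with 1 CpG dinucleotide each), and the window of Timp3 had 67.0% G and C with 24 CpG. Over all 32851 windows the medians were 52.7% and 7 CpG. In the Mmp3 and Mmp13 sequences capitals mark the AP-1 element TGANTCA, the TATA box TATAAA and the Runx element AACCACA, and in the Timp3 sequence they mark each CG. The Mmp3 and Mmp13 stretches are the 250 bases up to the start. The Timp3 stretch stops 41 bases before the RefSeq start, where the GENCODE transcript begins. All are on the plus strand, at chr9:7445572-7445821, chr9:7272264-7272513 and chr10:86300162-86300371.
Mmp3: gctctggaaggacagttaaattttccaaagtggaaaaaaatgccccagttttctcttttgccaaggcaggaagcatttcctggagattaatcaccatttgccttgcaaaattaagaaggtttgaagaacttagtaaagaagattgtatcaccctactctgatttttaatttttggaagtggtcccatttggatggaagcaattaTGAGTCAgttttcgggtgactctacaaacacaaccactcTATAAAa
Mmp13: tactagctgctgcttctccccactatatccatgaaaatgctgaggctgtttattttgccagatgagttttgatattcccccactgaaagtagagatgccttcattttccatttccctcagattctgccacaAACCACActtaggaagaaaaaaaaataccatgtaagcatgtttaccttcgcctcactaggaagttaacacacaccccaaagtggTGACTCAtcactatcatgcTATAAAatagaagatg
Timp3: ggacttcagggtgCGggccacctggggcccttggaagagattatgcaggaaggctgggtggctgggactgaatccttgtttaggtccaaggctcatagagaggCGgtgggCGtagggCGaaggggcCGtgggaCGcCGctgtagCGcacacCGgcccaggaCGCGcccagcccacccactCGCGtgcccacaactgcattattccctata

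Motifs of 6 kinds were searched on both strands of each window, and none of the matches in the printed stretches overlapped another. An AP-1 element began 46 bases before the start of Mmp3 and 35 bases before that of Mmp13, and none of the other 6 member windows held one, against 7.81% of all windows. A TATA box began 7 and 16 bases before the same starts and was in no other member window (13.6% of all windows). The Runx element AACCACA was in the Mmp13 window alone, beginning 119 bases before the start (5.27% of all windows). The GC box GGGCGG was in the windows of Mmp11, Mmp14, Mmp15, Timp1, Timp2 and Timp3, and in 35.7% of all windows. The SMAD element CAGACA (21.0% of all windows) was in none of the 8 windows, and the Ets element AGGAAG (35.4% of all windows) was in those of Mmp3, Mmp13, Mmp14, Timp1 and Timp3. A match describes the letters of the window and not a bound site.

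Among the inhibitors, Timp3 (ENSMUSG00000020044.13, chromosome 10, 86300372 to 86349506, plus strand, GENCODE M21 on GRCm38, protein coding) encodes the TIMP that stays bound to the matrix and also inhibits ADAM17. It was read at 163, 96.1, 141, 149.8 and 168 CPM in DOX_pos tumours 1 to 5, against 84.1, 44.9, 82.5, 26.0 and 103 CPM in DOX_neg tumours 1 to 5. Of the DOX_pos tumours 4 of 5 lay above every DOX_neg tumour, and DOX_pos 2 lay below DOX_neg 5 alone. The groups thus overlapped in 1 tumour of each. In edgeR the log2 fold change of Timp3 was 1.08 (SE 0.32, 95% interval 0.38 to 1.78), or 2.11-fold, with an unadjusted p of 0.00623 and an adjusted p of 0.215. DESeq2 gave Timp3 a log2 fold change of 1.08 and called it (adjusted p = 0.0374), and limma voom gave 1.21 without calling it (adjusted p = 0.199). Without any 1 of the 10 tumours the log2 fold change of Timp3 stayed between 0.87 (without DOX_neg 4) and 1.28 (without DOX_neg 5), with edgeR's adjusted p between 0.118 and 0.378. Leaving out DOX_neg 4 and DOX_pos 5 together, the ends of the first principal component, gave 0.80 (edgeR adjusted p = 0.459). Timp3 lies inside the span of Syn3 on the opposite strand, where 425 counts were assigned to Syn3 over the 10 tumours and 21681 to Timp3.

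Timp1 (ENSMUSG00000001131.11, chromosome X, 20870166 to 20874735, plus strand), an inhibitor of secreted MMPs whose transcription responds to cytokines and growth factors, had 11.1, 10.8, 14.1, 9.80 and 20.6 CPM in DOX_pos tumours 1 to 5, against 11.8, 5.22, 13.0, 4.29 and 9.84 CPM in DOX_neg tumours 1 to 5. The groups overlapped, since only DOX_pos 3 and DOX_pos 5 lay above every DOX_neg tumour, and the lowest values were those of DOX_neg 4 and DOX_neg 2. The log2 fold change of Timp1 was 0.59 (SE 0.32, edgeR adjusted p = 0.381), 0.38 without DOX_pos 5 and 0.77 without DOX_neg 3, the second with an unadjusted edgeR p of 0.0446. Timp1 lies inside the span of Syn1 on the opposite strand, with 2256 counts for Timp1 and 64 for Syn1 over the 10 tumours. Timp2 (ENSMUSG00000017466.9, chromosome 11, 118301069 to 118355740, minus strand) was at 68.8, 66.6, 83.7, 67.0 and 116 CPM in DOX_pos tumours, against 61.2, 85.4, 63.9, 71.1 and 68.5 CPM in DOX_neg tumours. DOX_pos 5 stood above the others and the remaining tumours of the groups were interleaved. Its log2 fold change was 0.20 (SE 0.16, edgeR adjusted p = 0.543), and 0.03 without DOX_pos 5. Cep295nl, on the same strand within the span of Timp2, had 618 counts over the 10 tumours against 15226 for Timp2.

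Both membrane-bound enzymes differed little between the groups. Mmp14 (ENSMUSG00000000957.11, chromosome 14, 54431612 to 54445364, plus strand), the membrane-type enzyme that cuts fibrillar collagen and activates proMMP2, had 110.8, 94.6, 95.8, 47.1 and 102 CPM in DOX_pos tumours 1 to 5, against 92.7, 92.0, 103, 50.4 and 99.9 CPM in DOX_neg tumours 1 to 5. In each group tumour 4 was at about the same low level and the other 4 were close together. The log2 fold change of Mmp14 was 0.04 (SE 0.24, 95% interval -0.48 to 0.56, edgeR adjusted p = 0.948). Its sign turned without DOX_pos 1 (-0.04), without DOX_pos 5 (-0.01) and without DOX_neg 4 (-0.11).

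Mmp15 (ENSMUSG00000031790.8, chromosome 8, 95352268 to 95375080, plus strand), a second membrane-type enzyme, was at 52.2, 55.5, 49.6, 51.4 and 57.9 CPM in DOX_pos tumours, against 37.7, 59.8, 42.7, 45.5 and 42.1 CPM in DOX_neg tumours. All DOX_pos tumours lay above 4 of the DOX_neg tumours and below DOX_neg 2. Mmp15 had a log2 fold change of 0.23 (SE 0.11, 95% interval -0.02 to 0.47, edgeR adjusted p = 0.344). Without DOX_neg 2 it was 0.34 with an unadjusted edgeR p of 8.92e-04 and an adjusted p of 0.327. The spread of Mmp15 within groups was the smallest of the members, with an SD of 0.18 on the log2(CPM + 1) scale.

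Of the gelatinases, which cut denatured collagen and type IV collagen, Mmp2 (ENSMUSG00000031740.8, chromosome 8, 92827291 to 92853420, plus strand) had 29.1, 21.1, 33.6, 19.2 and 54.6 CPM in DOX_pos tumours 1 to 5, against 48.4, 46.1, 50.02, 24.5 and 41.3 CPM in DOX_neg tumours 1 to 5. DOX_pos 5 was the highest of all 10, while DOX_pos 2 and DOX_pos 4 lay below every DOX_neg tumour, and DOX_pos 1 and DOX_pos 3 below all of them but DOX_neg 4. The log2 fold change of Mmp2 was -0.42 (SE 0.28, 95% interval -1.04 to 0.21, edgeR adjusted p = 0.475). Without DOX_pos 5 it was -0.70 (edgeR adjusted p = 0.338), and without both DOX_neg 4 and DOX_pos 5 it was -0.85 (edgeR adjusted p = 0.320), each with an unadjusted p under 0.05.

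Mmp9 (ENSMUSG00000017737.2, chromosome 2, 164940780 to 164955850, plus strand), the gelatinase stored in neutrophil granules and made by macrophages and other cells, was low. It had 7.72, 3.401, 7.77, 1.503 and 10.9 CPM in DOX_pos tumours, against 9.68, 7.93, 14.8, 2.72 and 7.06 CPM in DOX_neg tumours. The highest level was in DOX_neg 3 and the lowest in DOX_pos 4 and DOX_neg 4, so the groups overlapped throughout. Mmp9 had a log2 fold change of -0.42 (SE 0.50, edgeR adjusted p = 0.695), between -0.13 without DOX_neg 3 and -0.70 without DOX_pos 5.

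Mmp13 and Mmp3 lie near each other in a cluster of MMP genes on chromosome 9 (plus strand, 7272514 to 7283331 and 7445822 to 7455975). Mmp13 (ENSMUSG00000050578.10), the main interstitial collagenase of rodents, was read at 28.2, 11.2, 39.2, 4.87 and 101 CPM in DOX_pos tumours 1 to 5, against 52.3, 37.2, 93.6, 14.8 and 51.0 CPM in DOX_neg tumours 1 to 5. DOX_pos 5 and DOX_neg 3 were the highest, DOX_pos 4 was the lowest, and the highest was 20.8 times the lowest. Mmp13 had a log2 fold change of -0.43 (SE 0.69, edgeR adjusted p = 0.777), -1.23 without DOX_pos 5 and -0.08 without DOX_neg 3.

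Mmp3 (ENSMUSG00000043613.8), stromelysin-1, cuts many matrix proteins and activates other proMMPs. It had 11.3, 3.60, 11.3, 0.930 and 29.8 CPM in DOX_pos tumours, against 11.5, 2.17, 16.5, 0.521 and 6.36 CPM in DOX_neg tumours, the lowest value resting on 9 counts. The highest tumour exceeded the lowest 57.1 times. The log2 fold change of Mmp3 was 0.63 (SE 0.87, 95% interval -1.28 to 2.53, edgeR adjusted p = 0.737) and turned to -0.10 without DOX_pos 5. Mmp11 (ENSMUSG00000000901.17, chromosome 10, 75923222 to 75936496, minus strand), stromelysin-3, which furin-like convertases activate inside the cell, was at 2.16, 3.15, 4.79, 1.65 and 3.99 CPM in DOX_pos tumours, against 2.71, 2.56, 4.27, 2.20 and 2.04 CPM in DOX_neg tumours. The groups overlapped throughout, with a log2 fold change of 0.21 (SE 0.30, edgeR adjusted p = 0.747) that turned to -0.0034 without DOX_pos 3. Mmp11 had 631 counts over the 10 tumours and overlaps part of Chchd10 on the opposite strand (3758 counts).

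**Figure D2:**
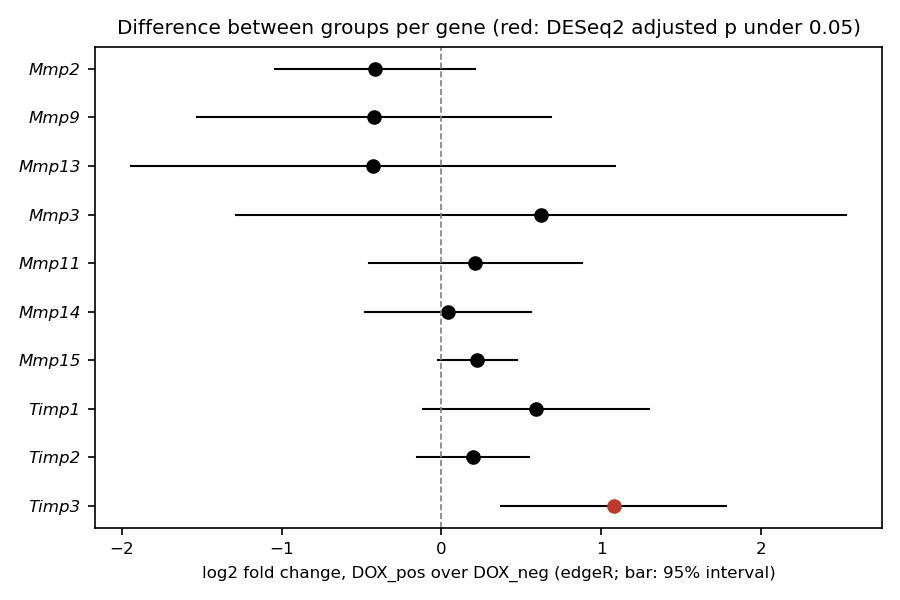
Log2 fold change of each member, DOX_pos over DOX_neg, from edgeR, with bars for the 95% interval and a dashed line at no change. Timp3 (1.08) is the 1 gene whose interval lies clear of 0 and is drawn in red as called by DESeq2, and the intervals of Mmp3 and Mmp13 are the widest.

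The members ranked differently by level than by difference. Divided by the length of the merged exons, levels over the 10 tumours ran in the order Timp2 (19.3 ± 4.20 CPM per kilobase, SD, 10 tumours), Mmp13 (16.2 ± 12.2), Mmp14 (14.9 ± 3.68), Timp3 (13.0 ± 6.01), Timp1 (12.5 ± 5.16), Mmp2 (10.9 ± 3.85), Mmp15 (9.16 ± 1.35), Mmp3 (5.22 ± 4.98), Mmp9 (2.08 ± 1.14) and Mmp11 (1.06 ± 0.383). Neighbours from Timp2 down to Mmp15 differed by less than their spread, the upper of each pair being higher in 4 to 6 of 10 tumours. Mmp15 lay above Mmp3 in 8 tumours, Mmp3 above Mmp9 in 8 and Mmp9 above Mmp11 in 7. The order differed by group. In DOX_pos tumours the mean levels ran Timp2 (20.6 CPM per kilobase), Timp3 (17.6), Mmp14 (15.1), Timp1 (14.98), Mmp13 (13.8), Mmp15 (9.88) and Mmp2 (9.35). In DOX_neg tumours they ran Mmp13 (18.6 CPM per kilobase), Timp2 (17.97), Mmp14 (14.7), Mmp2 (12.5), Timp1 (9.95), Mmp15 (8.44) and Timp3 (8.36). Mmp3, Mmp9 and Mmp11 came last, in that order, in both groups. The Timp3 level had an SD of 3.52 CPM per kilobase in DOX_pos and 3.87 in DOX_neg tumours (n = 5 each).

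Added over the genes of each kind, the length-scaled enzyme level was 57.4 ± 28.8 CPM per kilobase in DOX_pos and 61.7 ± 20.9 in DOX_neg tumours, and the inhibitor level was 53.3 ± 12.5 in DOX_pos and 36.3 ± 6.47 in DOX_neg tumours (SD, n = 5 each). The inhibitor sum divided by the enzyme sum was 0.886, 1.01, 0.911, 1.76 and 0.716 in DOX_pos tumours 1 to 5, against 0.591, 0.570, 0.458, 0.832 and 0.664 in DOX_neg tumours 1 to 5. Of the DOX_pos tumours 4 of 5 lay above every DOX_neg tumour on this ratio, and DOX_pos 5 lay below DOX_neg 4. The mean ratio in DOX_pos tumours was 1.70 times that in DOX_neg tumours, 1.41 times without DOX_pos 4 and 1.78 times when CPM were added without length scaling. These ratios are of transcripts of genes chosen with results known, so they carry no test. Timp3 made up 33.6 ± 5.74% of the inhibitor sum in DOX_pos and 22.0 ± 7.49% in DOX_neg tumours.

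**Figure D3:**
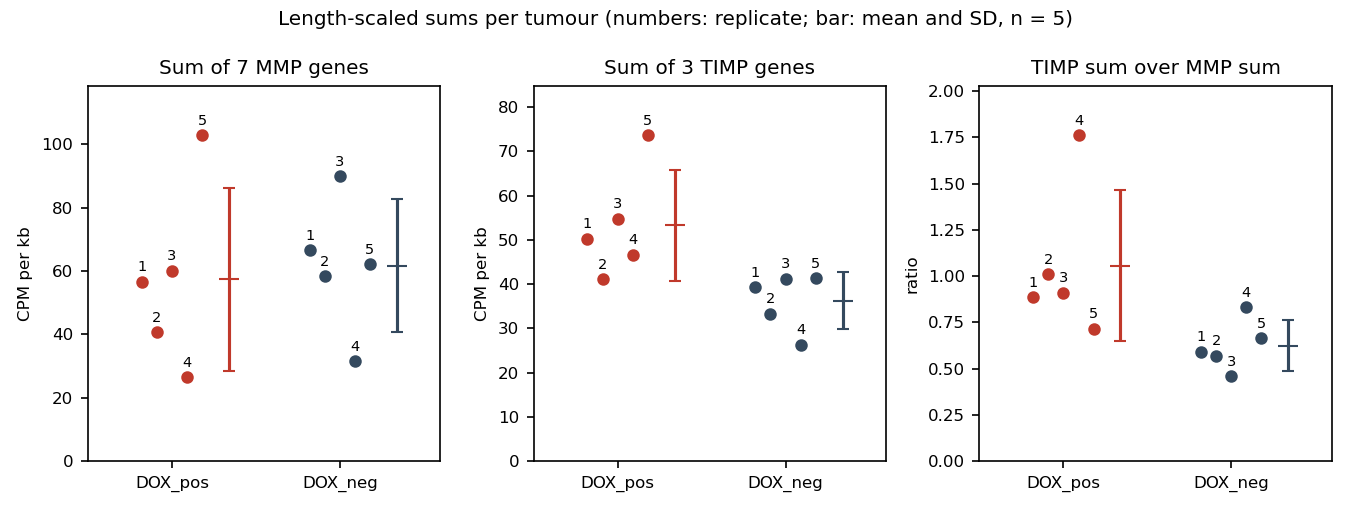
Length-scaled sums per tumour for the 7 MMP genes (left), the 3 TIMP genes (middle) and their ratio (right), with replicate numbers above the points and mean and SD beside them. The enzyme sums overlap fully (57.4 and 61.7 CPM per kilobase on average), while the inhibitor sum is higher in DOX_pos tumours on average (53.3 against 36.3), DOX_pos 2 lying among the DOX_neg tumours.

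Tumours differed from each other in much the same order for several members. DOX_pos 5 was among the 3 highest tumours for 10 of 10 members and the highest for 6 of them. DOX_pos 4 and DOX_neg 4 were each among the 3 lowest for 7 of 10 members, DOX_pos 4 being the lowest for Mmp2, Mmp9, Mmp11, Mmp13 and Mmp14, and DOX_neg 4 for Mmp3, Timp1 and Timp3. Timp3 departed most from this order in DOX_pos 4, where it was the third highest of the 10 values. Mmp15 and Timp2 departed less there, at ranks 6 and 4 counted from the lowest. In DOX_neg 4 Timp2 was at rank 7. The SD within groups on the log2(CPM + 1) scale was 1.49 for Mmp3, 1.31 for Mmp13 and 0.84 for Mmp9, above 99.9, 99.8 and 98.6% of all tested genes, and 0.61 for Timp3 (95.8%).

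Fibroblast markers followed a like order. The summed level of 13 fibroblast genes (all tested, 4 higher and 9 lower, 2 of them lower at an unadjusted edgeR p under 0.05) was 388, 181, 383, 198 and 806 CPM in DOX_pos tumours 1 to 5, against 436, 344, 437, 229 and 494 CPM in DOX_neg tumours 1 to 5. It was thus highest in DOX_pos 5 and lowest in DOX_pos 2, DOX_pos 4 and DOX_neg 4, the tumours that were also lowest for Mmp2 and Mmp13. Postn led the sum and made up 580 of the 806 CPM in DOX_pos 5. Pdgfrb, the next most abundant, ran only from 41.7 to 66.1 CPM and was highest in DOX_neg 5. Both genes were lowest in DOX_pos 2, DOX_pos 4 and DOX_neg 4. Basal and myoepithelial markers (9 tested, 9 higher, 1 at an unadjusted edgeR p under 0.05) summed to 361, 120, 269, 131 and 589 CPM in DOX_pos tumours, against 284, 99.8, 310.3, 85.8 and 254 CPM in DOX_neg tumours, and the 4 tumours lowest for them were also the 4 lowest for Mmp3. The part of these cell types in the members' values was not tested. For Timp3 in particular, DOX_pos 5 was the highest tumour for Timp3 and for both marker sums, and DOX_neg 4 and DOX_neg 2 were the lowest for Timp3 and for basal markers, while DOX_pos 4 was among the highest for Timp3 and among the lowest for both sums.

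**Figure D4:**
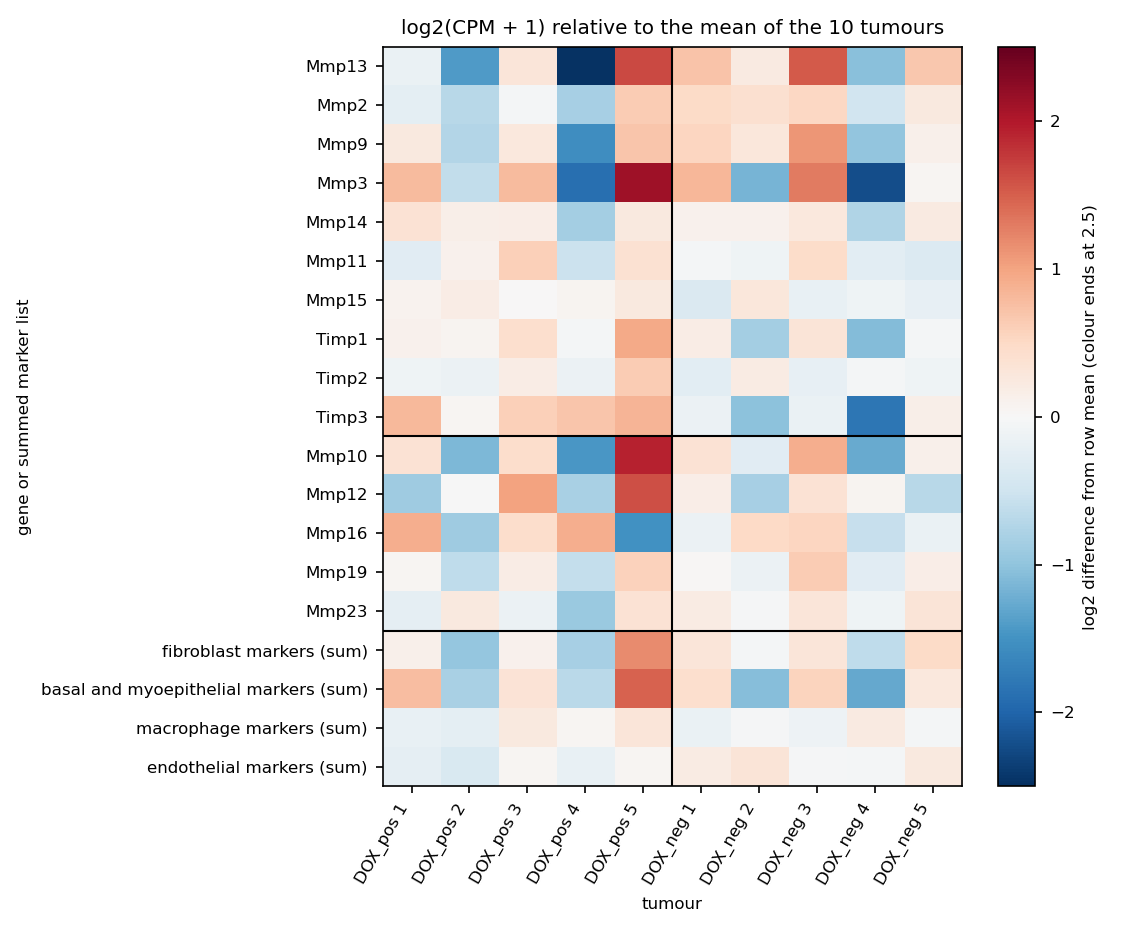
Log2(CPM + 1) of the 10 members (top block), 5 of the 8 other tested MMP genes (middle block) and some summed marker lists (bottom block). Each row is relative to its mean over the 10 tumours, with DOX_pos tumours left of the vertical line and DOX_neg tumours right of it. The sums drawn are those of fibroblast, basal, macrophage and endothelial markers, and the luminal, pericyte and other sums are not drawn. The rows of Mmp13, Mmp2, Mmp9, Mmp3, Mmp10 and the fibroblast and basal sums share high values in DOX_pos 5 and low values in DOX_pos 4 and DOX_neg 4, and Timp3 is high in DOX_pos 4.

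Markers of other cell types were summed in the same way. Endothelial markers were lower in 8 of 8 genes, 4 of them at an unadjusted edgeR p under 0.05, with sums of 92.5 to 126 CPM in DOX_pos and 118 to 152 CPM in DOX_neg tumours. Pericyte sums were 197 to 283 CPM in DOX_pos and 195 to 239.6 CPM in DOX_neg tumours (4 of 6 genes higher, 0 at an unadjusted edgeR p under 0.05). On the sum 4 of 5 DOX_pos tumours lay above every DOX_neg tumour, the same 4 tumours as for Timp3. For the 2 most abundant pericyte genes, Notch3 and Mcam, 1 and 3 DOX_pos tumours did so. The match was not particular to pericyte genes. The same 4 tumours also lay above every DOX_neg tumour for the luminal gene Cdh1 and the proprotein convertase gene Pcsk7. The part of pericytes in the Timp3 result was not tested. Macrophage sums were 486 to 708 CPM in DOX_pos and 515 to 669 CPM in DOX_neg tumours (7 of 10 higher, 1 at an unadjusted edgeR p under 0.05). Neutrophil markers were scarce at 7.51 to 19.0 CPM in DOX_pos and 5.86 to 18.8 CPM in DOX_neg tumours, with 4 of 9 genes passing the filter. T and NK cell sums were 7.44 to 16.4 and 9.27 to 20.6 CPM in the same order of groups, and mast cell sums 0.501 to 1.81 and 0.116 to 2.28 CPM, with Fcer1a at 0 in every tumour. Of the 6 T and NK cell genes that passed the filter 1 was higher and 5 lower, 0 at an unadjusted edgeR p under 0.05. Luminal epithelial sums were 1310 to 1932 CPM in DOX_pos and 1292 to 1760 CPM in DOX_neg tumours. Of these 8 genes 6 were higher, with 2 higher and 1 lower at an unadjusted edgeR p under 0.05. Krt8 was at 395 ± 77.6 CPM in DOX_pos and 338 ± 66.9 CPM in DOX_neg tumours. Cdh1 was at 309 ± 53.2 and 259 ± 20.3 CPM, so epithelial markers were abundant in both groups. Adipocyte sums were 24.4 to 44.6 CPM in DOX_pos and 43.4 to 56.1 CPM in DOX_neg tumours, with 2 of 7 genes passing the filter, 1 higher and 1 lower. Lpl, which led the sum, averaged 22.0 CPM in DOX_pos and 41.7 CPM in DOX_neg tumours. It was lower with an edgeR adjusted p of 0.196 and was called by DESeq2 (adjusted p = 0.00581). Fabp4 averaged 7.37 CPM in DOX_pos and 7.15 CPM in DOX_neg tumours, so the lower sum reflected Lpl. Skeletal muscle genes stood out in DOX_pos 1, DOX_pos 3 and DOX_neg 5 (67.5, 32.7 and 66.4 CPM), against at most 2.08 CPM elsewhere.

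Mmp14, Timp2 and proMMP2 meet in one activation complex, so their transcripts were compared over the tumours. Mmp14 and Mmp2 had a Pearson r of 0.63 (n = 10, permutation p = 0.0738, adjusted over 3 pairs 0.221) and a Spearman rho of 0.49 (permutation p = 0.156, adjusted 0.467). Without DOX_pos 4 and DOX_neg 4, the tumours farthest from the Mmp14 median, r was -0.03, so the relation rested on those 2 tumours. Mmp14 and Timp2 had an r of 0.19 (permutation p = 0.733, adjusted 0.733) and a rho of 0.03 (permutation p = 0.943, adjusted 0.943), with r = 0.02 without the same tumours. Mmp2 and Timp2 had an r of 0.38 (permutation p = 0.273, adjusted 0.410) and a rho of 0.14 (permutation p = 0.703, adjusted 0.943), and r was 0.27 without DOX_pos 4 and DOX_pos 2. No pair passed over the 10 tumours. With each gene centred on its group mean, r was 0.73 for Mmp14 and Mmp2 (permutation p = 0.0188 before adjustment), 0.19 for Mmp14 and Timp2, and 0.63 for Mmp2 and Timp2. That permutation shuffled centred values over all 10 tumours and not within groups, so its p can be too small. The centred r was not computed without DOX_pos 4 and DOX_neg 4.

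The genes most like Mmp13 and Timp2, the enzyme and the inhibitor with the highest mean per kilobase over all tumours, were listed as a description, over 10 tumours and among 8988 other genes with a mean of at least 10 CPM. Mmp13 was followed most closely by Antxr1, a collagen-binding receptor (r = 0.97, rho = 0.98), Mmp2 (0.95 and 0.96), the elastic fibre glycoprotein gene Emilin1 (0.95 and 0.93), Bicc1 (0.945 and 0.952) and Igfbp4, a binding protein of insulin-like growth factors (0.935 and 0.952). Timp2 was followed most closely by Tmem176a (r = 0.90, rho = 0.55), Csf1r, the receptor of macrophage colony-stimulating factor (0.89 and 0.77), the lysosomal peptidase gene Tpp1 (0.89 and 0.66), the leukocyte surface gene Cd84 (0.89 and 0.82) and the peroxisomal oxidase gene Acox3 (0.89 and 0.78). All of these share the same libraries, and the highest of many coefficients over 10 points are high by choice.

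Of the 17 other MMP and TIMP genes 8 passed the filter, 5 higher and 3 lower, and 0 had an unadjusted p under 0.05 with edgeR (DESeq2 called 0). Mmp12, macrophage elastase, was the most abundant of these per kilobase, at 16.6, 31.6, 64.7, 17.5 and 99.0 CPM in DOX_pos tumours 1 to 5, against 35.5, 17.3, 41.0, 33.0 and 19.1 CPM in DOX_neg tumours 1 to 5. DOX_pos 3 and DOX_pos 5 were the highest and DOX_pos 1 the lowest, and the log2 fold change was 0.66 (SE 0.49, edgeR adjusted p = 0.511). Mmp10, stromelysin-2, which lies beyond Mmp3 in the chromosome 9 cluster, was at 4.59, 1.00, 4.86, 0.573 and 15.5 CPM in DOX_pos tumours, against 4.56, 2.56, 7.10, 0.811 and 3.73 CPM in DOX_neg tumours. As for Mmp3 and Mmp13, its highest tumour was DOX_pos 5 and its second highest DOX_neg 3. The Mmp10 window of the promoter table held an AP-1 element 63 bases and a TATA box 29 bases before the start. Both motifs were also in the windows of Mmp1a, Mmp1b and Mmp20 and in 1 of 2 windows each of Mmp7 and Mmp12, of which only Mmp12 passed the filter. Mmp16 averaged 12.1 ± 7.91 CPM in DOX_pos and 10.7 ± 3.77 CPM in DOX_neg tumours, Mmp19 4.88 ± 2.10 and 5.40 ± 1.66 CPM, Mmp23 1.84 ± 0.895 and 2.33 ± 0.441 CPM, and Mmp17 1.67 ± 0.173 and 1.75 ± 0.485 CPM (SD, n = 5 each). Mmp28 and Mmp25 averaged under 1 CPM in both groups. Mmp8, Mmp27, Mmp1b and Mmp24 had 80, 51, 31 and 8 counts over all 10 tumours, Mmp1a, Mmp21 and Timp4 had 1 count each, and Mmp7 and Mmp20 had 0.

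Among 15 tested genes for the activation, inhibition and clearance of MMPs, 12 were higher and 3 lower, with 2 higher and 1 lower at an unadjusted p under 0.05 with edgeR and 0 passing over all genes. Thbs2, encoding thrombospondin-2, a matricellular protein that binds MMP2 and aids its uptake, was at 96.2, 39.9, 106, 45.9 and 94.6 CPM in DOX_pos tumours 1 to 5, against 170.2, 193, 148, 84.6 and 193 CPM in DOX_neg tumours 1 to 5. DOX_pos 2 and DOX_pos 4 lay below every DOX_neg tumour, and the other DOX_pos tumours lay below all but DOX_neg 4. Its log2 fold change was -1.04 (SE 0.31, edgeR adjusted p = 0.215), and DESeq2 called it as lower (adjusted p = 0.0394). The proprotein convertase genes Pcsk7 and Pcsk6 were at 42.0 ± 3.23 and 63.5 ± 11.6 CPM in DOX_pos tumours, against 35.9 ± 2.86 and 50.1 ± 9.51 CPM in DOX_neg tumours (SD, n = 5 each), with edgeR adjusted p of 0.240 and 0.2998. Plg and Ctsg, for plasminogen and cathepsin G, had 0 counts in every tumour.

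The related families gave few differences. Of 10 ADAM genes 4 were higher and 6 lower, with Adam23 at 4.14 ± 1.47 CPM in DOX_pos and 7.15 ± 2.36 CPM in DOX_neg tumours. It was the 1 gene of the list with an unadjusted edgeR p under 0.05 (edgeR adjusted p = 0.261). Adam9 (log2 fold change 0.14, SE 0.08) and Adam10 (0.14, SE 0.09) came next by unadjusted edgeR p. Of 17 tested ADAMTS genes 8 were higher and 9 lower, with Adamts16 at 1.88 ± 0.858 CPM in DOX_pos and 4.55 ± 2.37 CPM in DOX_neg tumours. Adamts16 was likewise the 1 gene of its list under that value (edgeR adjusted p = 0.246). The log2 fold change was 1.00 (SE 0.48) for Adamts18 and 0.30 (SE 0.14) for Adamts10. Of 17 genes for transcription factors that act on MMP promoters, of the AP-1, Ets, Runx and NF-kappa B families, 14 were higher and 3 lower, and 0 had an unadjusted p under 0.05 with edgeR (DESeq2 called 0). The smallest p were those of Nfkb1 (log2 fold change 0.28, SE 0.14), Etv5 (0.27, SE 0.14) and Runx2 (0.54, SE 0.32). The median of the list was 0.16, against 0.00 over all genes.

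Mouse Hpn, the gene the construct was made to induce, was at 26.5, 46.1, 25.1, 32.8 and 28.2 CPM in DOX_pos tumours 1 to 5, against 25.8, 25.1, 23.1, 14.2 and 20.4 CPM in DOX_neg tumours 1 to 5. DOX_pos 3 lay among the DOX_neg tumours and the other 4 above them. The difference of mean log2(CPM + 1) was 0.52 (two-sided exact permutation p = 0.0159, n = 5 each), and edgeR's log2 fold change was 0.55 (adjusted p = 0.247). Whether the construct carries mouse or human hepsin is not stated in the labels, and reads of a human transcript need not count as mouse Hpn.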

How the data were processed

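The authors deposited whole-number read counts per Ensembl gene, not normalised, from rRNA-depleted, directional, single-end 75 bp libraries, per the labels' protocols. Per the submitters' processing notes, tools included STAR 2.6.0c, featureCounts, Trimmomatic, bcl2fastq and DESeq2, with build GRCm38. Which annotation and strand setting were used for counting is not given in the sources used here.

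Groups and replicate numbers came from the sample labels. Of 55335 identifiers 55154 had a symbol in the name table used, and coordinates and exon lengths came from GENCODE M21. Each of the 20 within-group pairs of libraries differed by more than sampling noise, with chi-square over degrees of freedom of 6.76 to 41.9. The edgeR 4.0.16 quasi-likelihood test (R 4.3.3) used TMM, filterByExpr (minimum count 10, minimum total 15) and Benjamini-Hochberg adjustment over 16167 genes at 0.05, and was tested on simulated data. SE is the log2 fold change over the square root of F. Correlations used log2(CPM + 1). Alternatives were DESeq2 1.42.0, limma 3.58.1 (voom), other scalings and filters, a replicate block and left-out tumours, and the sum ratios were added after seeing the data.

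The text names all members, Hpn, every tested MMP and TIMP gene, the 3 genes of each pathway list with the smallest p, genes among the 2 highest of each marker list, and the 5 genes most like Mmp13 and Timp2. Genes at or near 0 counts and overlapping genes were named after their values were seen. Members and lists were chosen with earlier results of these data known.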

Additional observations from a re-analysis of the deposited data

Results flagged for a closer look

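Of 44 groups of 5 values checked, 5 had a tumour standing apart by Dixon's criterion, and chance marks about 1 in 20. Mmp14 was at 47.1 CPM in DOX_pos 4, against 94.6 CPM in the next lowest DOX_pos tumour. Mmp14 was likewise at 50.4 CPM in DOX_neg 4, against 92.0 CPM in the next lowest DOX_neg tumour. Mmp10 was at 15.5 CPM in DOX_pos 5, against 4.86 CPM in the next highest of its group. Mmp28 was at 1.56 CPM in DOX_pos 3, against 0.906 CPM in the next highest of its group. The ratio of the TIMP sum to the MMP sum was 1.76 in DOX_pos 4, against 1.01 in the next highest DOX_pos tumour.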

How the results depend on the processing

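The count of genes called over all genes was 0 with edgeR, 322 with DESeq2, 7 with the replicate block, and between 0 and 37 when 1 tumour was left out (37 without DOX_neg 3, 2 without DOX_pos 2). The count of members at an unadjusted p under 0.05 was 1 (1 higher, 0 lower), 2 with limma voom (2 higher), 4 with the replicate block (3 higher, 1 lower), 3 without both DOX_neg 4 and DOX_pos 5 (2 lower), and 1 to 2 when 1 tumour was left out (1 to 2 higher, 0 to 1 lower). Replicate numbers were not taken to pair the tumours, since the labels do not state a pairing. Correlations of same-numbered deviations ran from 0.0706 to 0.264 and 3 of 10 tumours correlated best with their own number, which does not settle the question. With the replicate block the SE of every member was lower, that of Mmp14 being 0.07 against 0.24 and that of Mmp13 0.39 against 0.69. The block left 0 members with an adjusted p under 0.05. Mmp14 turned sign without DOX_pos 1, DOX_pos 5 or DOX_neg 4 (-0.04, -0.01 and -0.11; range -0.11 to 0.20), Mmp11 without DOX_pos 3 (-0.0034; range to 0.42) and Mmp3 without DOX_pos 5 (-0.10; range to 1.14). Without both DOX_neg 4 and DOX_pos 5 Mmp3 was at -0.40 and Mmp14 at -0.16. The correlation of Mmp14 and Mmp2 was 0.73 with group centring, and 0.43 to 0.77 when 1 tumour was left out (0.77 without DOX_pos 2, exact permutation p = 0.0419). The causes were not tested. Timp3 kept its direction under all 19 alternatives (0.80 to 1.28), and the Hpn difference in log2(CPM + 1) kept its direction and an unadjusted exact permutation p of 0.0159 to 0.0317 under all 13 (0.38 to 0.60). The lowest count in a tumour was 9 for Mmp3, 21 for Mmp9 and 23 for Mmp11.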
